A study of Mus musculus with 8 samples.

Results

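Classical cadherins, catenins and the main desmosome proteins are encoded by the 10 genes described here: Cdh1, Cdh2, Ctnna1, Ctnnb1, Ctnnd1, Jup, Dsg2, Dsc2, Dsp and Pkp2. They were taken by gene symbol from an array of 19938 named genes. All 10 were found, each with 1 probe of its own, and all 10 passed the filter on low signal. The samples were 4 hepatocellular carcinomas and 4 pieces of adjacent liver from the same male C57BL/6J mice, M24, M48, M50 and M60. All 4 mice had been injected with an AAV vector, a viral gene carrier, at 2 to 3 months of age, and tissue was taken 18 months later. The labels do not say what the vector carried. The adjacent liver came from injected mice too, and uninjected liver was not analysed here. The question was how each gene's expression in the tumor differed from that in the adjacent liver of the same mouse.

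Cadherins are membrane proteins that bind the same cadherin on a neighbouring cell. In adherens junctions their tails hold p120-catenin (Ctnnd1) and beta-catenin (Ctnnb1) or plakoglobin (Jup), and alpha-catenin (Ctnna1) connects this complex to actin. In desmosomes, desmogleins and desmocollins are tied to keratin filaments through plakoglobin, plakophilins and desmoplakin. In mouse liver, N-cadherin (Cdh2) lies on hepatocytes throughout the lobule, whereas E-cadherin (Cdh1) marks bile duct cells and, among hepatocytes, mainly those near the portal vein.

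Values are deposited log2 expression values, so a difference of 1 is a doubling on the array's scale. Differences are tumor minus adjacent (n = 4 pairs), and SE stands for the standard error from limma with the mouse as a block. Rose and fell are used only for an adjusted p under 0.05 (Benjamini-Hochberg, 11963 genes). Each sample was measured on 1 array, and the number of arrays limits the precision. Hepatocyte markers were high in both tissues: the mean level of 7 measured markers was 13.09 to 13.20 in adjacent liver and 12.93 to 13.04 in tumors. In such bulk tissue, a change in the share of a cell type and a change in RNA per cell cannot be told apart.

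Of the 10 genes, 5 rose (Cdh1, Ctnna1, Ctnnb1, Ctnnd1 and Pkp2), 1 fell (Cdh2) and 4 did not pass (Jup, Dsg2, Dsc2 and Dsp). In the same fit, 16.3% of all tested genes rose and 15.7% fell. The tumor and adjacent values did not overlap for 6 of the 10 genes, against 30.5% of all tested genes. The median difference of the 10 genes was 0.34, beside 0.0008 for all tested genes. By mouse, their median was 0.39 (M24), 0.28 (M48), 0.37 (M50) and 0.33 (M60).

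**Figure D1:**
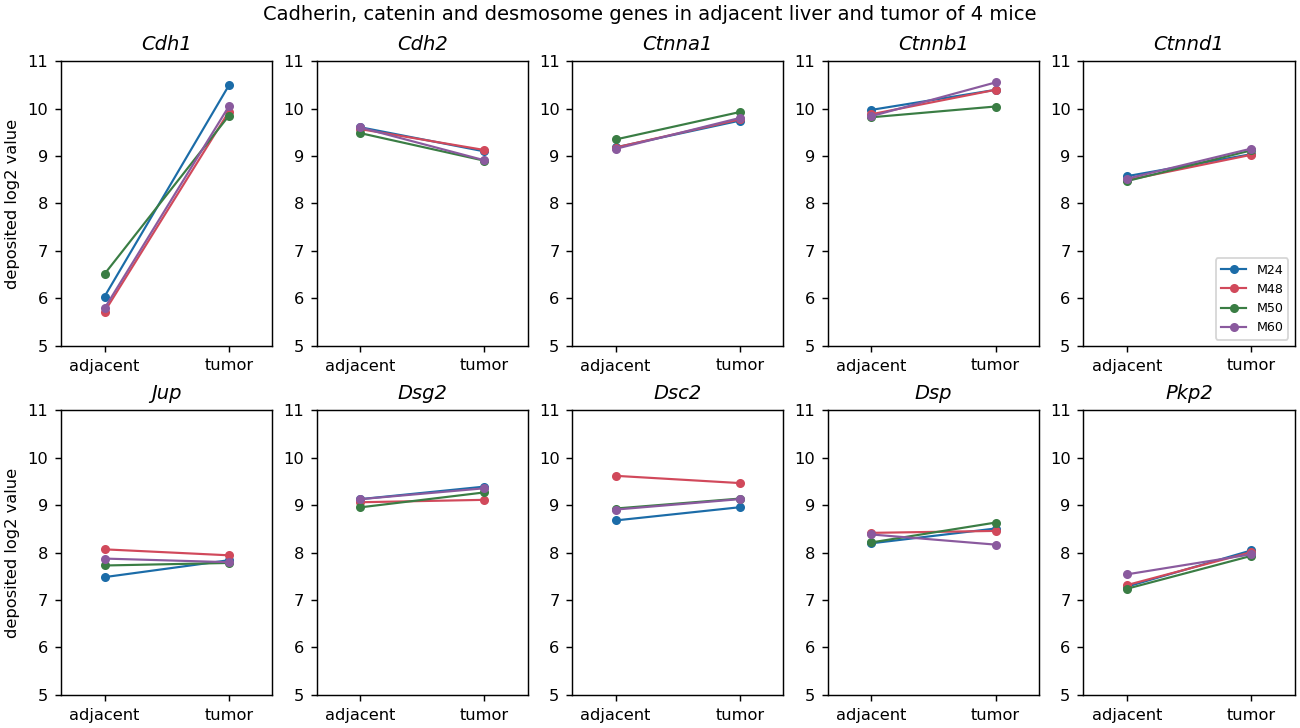
Deposited log2 values (vertical axis) of the 10 genes in adjacent liver and tumor, with 1 line per mouse and the same axis in every panel. Cdh1 climbs from between 5.72 and 6.51 to between 9.85 and 10.49, and Cdh2 declines in all 4 mice. The lines of Jup, Dsc2 and Dsp go up in some mice and down in others.

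The upstream sequences of 3 catenin genes are shown because 2 of them, Ctnnb1 and Ctnnd1, rose together, while Jup, the close relative of Ctnnb1, did not pass. Windows from RefSeq (GRCm38.p6) were matched by symbol for 4 of the 10 genes. Each sequence is the 250 bases before the outermost annotated start, read 5′ to 3′ on the gene's strand. Capitals mark the GC box (GGGCGG or its reverse complement CCGCCC) and the CCAAT box (CCAAT or ATTGG). The E-box bound by Snail and Zeb proteins (CACCTG or CAGGTG) was searched too. In these windows 0 matches overlapped each other.
Ctnnb1: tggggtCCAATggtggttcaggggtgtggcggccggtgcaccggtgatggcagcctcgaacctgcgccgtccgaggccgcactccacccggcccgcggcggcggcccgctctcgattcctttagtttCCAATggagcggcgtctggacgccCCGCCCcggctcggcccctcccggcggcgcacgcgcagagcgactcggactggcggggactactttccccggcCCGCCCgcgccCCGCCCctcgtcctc
Ctnnd1: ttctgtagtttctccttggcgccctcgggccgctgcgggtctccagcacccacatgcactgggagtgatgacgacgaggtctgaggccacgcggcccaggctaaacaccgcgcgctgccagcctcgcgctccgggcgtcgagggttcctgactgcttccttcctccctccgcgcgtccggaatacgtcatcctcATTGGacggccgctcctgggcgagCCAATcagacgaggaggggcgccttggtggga
Jup: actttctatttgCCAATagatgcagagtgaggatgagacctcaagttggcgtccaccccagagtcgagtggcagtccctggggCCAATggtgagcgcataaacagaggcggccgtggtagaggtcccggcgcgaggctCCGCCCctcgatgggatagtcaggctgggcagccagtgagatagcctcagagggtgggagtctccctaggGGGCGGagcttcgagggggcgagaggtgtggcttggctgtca
These windows lie at chr9:120933150-120933399 on the plus strand for Ctnnb1, at chr2:84658978-84659227 on the minus strand for Ctnnd1 and at chr11:100397791-100398040 on the minus strand for Jup. The Ctnnb1 window held 3 GC boxes and 2 CCAAT boxes, with a GC content of 74.8%. The Ctnnd1 window held 0 GC boxes and 2 CCAAT boxes (GC content 66.8%). The Jup window held 2 GC boxes and 2 CCAAT boxes (GC content 62%). Each held 0 E-boxes of the searched kind, which says only that these letters are not in the window. Of all 32851 windows of this length, 32.7% held a GC box, 33.8% a CCAAT box and 17.2% an E-box. The windows of Ctnnb1 and Jup, of which the first rose and the second did not pass, both held GC boxes and CCAAT boxes, and that of Ctnnd1, which rose, held CCAAT boxes alone.

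The classical cadherins moved in opposite directions. E-cadherin (Cdh1) stood at 6.04 (M24), 5.72 (M48), 6.51 (M50) and 5.79 (M60) in adjacent liver. In the tumors it stood at 10.49 (M24), 9.93 (M48), 9.85 (M50) and 10.05 (M60). Every tumor lay above every adjacent sample, and the spread within each tissue was small beside the distance between them. Cdh1 rose by 4.06 (SE 0.183, adjusted p = 0.000111), which is 16.7-fold on the array's scale, and ranked 15 of 11963 among the differences ordered from the highest. M50 had the smallest difference, 3.33, from the highest adjacent and the lowest tumor value, and M24 had the largest, 4.45.

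N-cadherin (Cdh2), the cadherin found on hepatocytes throughout the lobule, stood at 9.61 (M24), 9.57 (M48), 9.48 (M50) and 9.60 (M60) in adjacent liver. The tumor values were 9.10 (M24), 9.13 (M48), 8.90 (M50) and 8.91 (M60). All 4 tumors lay below all 4 adjacent samples, and the adjacent samples lay close together, with an SD of 0.0574. Cdh2 fell by 0.56 (SE 0.0809, adjusted p = 0.00359), a 1.47-fold decrease. The difference of Cdh1 exceeded that of Cdh2 in 4 of 4 mice, by 4.62 ± 0.489 (SD, n = 4). The exact two-sided sign-flip permutation test gave p = 0.125 (0.125 after adjustment over 3 such pairs), which is the smallest value that 4 pairs allow.

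Among the catenins, alpha-catenin, beta-catenin and p120-catenin rose, and the differences between their changes were not tested. Alpha-catenin (Ctnna1), the link to actin, stood at 9.18 (M24), 9.18 (M48), 9.35 (M50) and 9.15 (M60) in adjacent liver. The tumor values were 9.75 (M24), 9.77 (M48), 9.93 (M50) and 9.80 (M60). M50 was highest in both tissues, and the tissues did not overlap. Ctnna1 rose by 0.60 (SE 0.0734, adjusted p = 0.00208), with differences between 0.56 and 0.65 across the mice. p120-catenin (Ctnnd1), which holds cadherins at the cell surface, stood at 8.57 (M24), 8.49 (M48), 8.47 (M50) and 8.52 (M60) in adjacent liver. The tumor values were 9.04 (M24), 9.02 (M48), 9.12 (M50) and 9.15 (M60). The tissues were again separate, and Ctnnd1 rose by 0.57 (SE 0.0787, adjusted p = 0.00305).

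Beta-catenin (Ctnnb1), which also acts in the nucleus as the effector of Wnt signalling, was less even across mice. Its adjacent values were 9.97 (M24), 9.88 (M48), 9.82 (M50) and 9.84 (M60). Its tumor values were 10.39 (M24), 10.40 (M48), 10.04 (M50) and 10.55 (M60). All tumors lay above all adjacent samples, but the M50 tumor came close to the M24 adjacent value, and the SD was 0.215 in tumors and 0.0688 in adjacent liver. Ctnnb1 rose by 0.47 (SE 0.0992, adjusted p = 0.0133), from 0.23 in M50 to 0.71 in M60. Without M60 the difference was 0.39 and the call was lost (adjusted p = 0.0643, within a range of 0.00849 to 0.0643 over 11 alternatives).

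Plakoglobin (Jup), the catenin shared by adherens junctions and desmosomes, stood between 7.48 and 8.07 in adjacent liver and between 7.78 and 7.94 in tumors. The tumor values lay inside the adjacent range. The difference was 0.05 (SE 0.105, adjusted p = 0.743, 95% interval -0.20 to 0.30), with 2 of 4 mice higher, and its sign turned when arrays were centred on their medians (-0.0039) and without M24 (-0.05). The Ctnnb1 difference exceeded the Jup difference in 4 of 4 mice, by 0.42 ± 0.352 (SD, n = 4). The exact permutation test gave p = 0.125, again the smallest value that 4 pairs allow, so it could not pass 0.05 whatever the values.

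**Figure D2:**
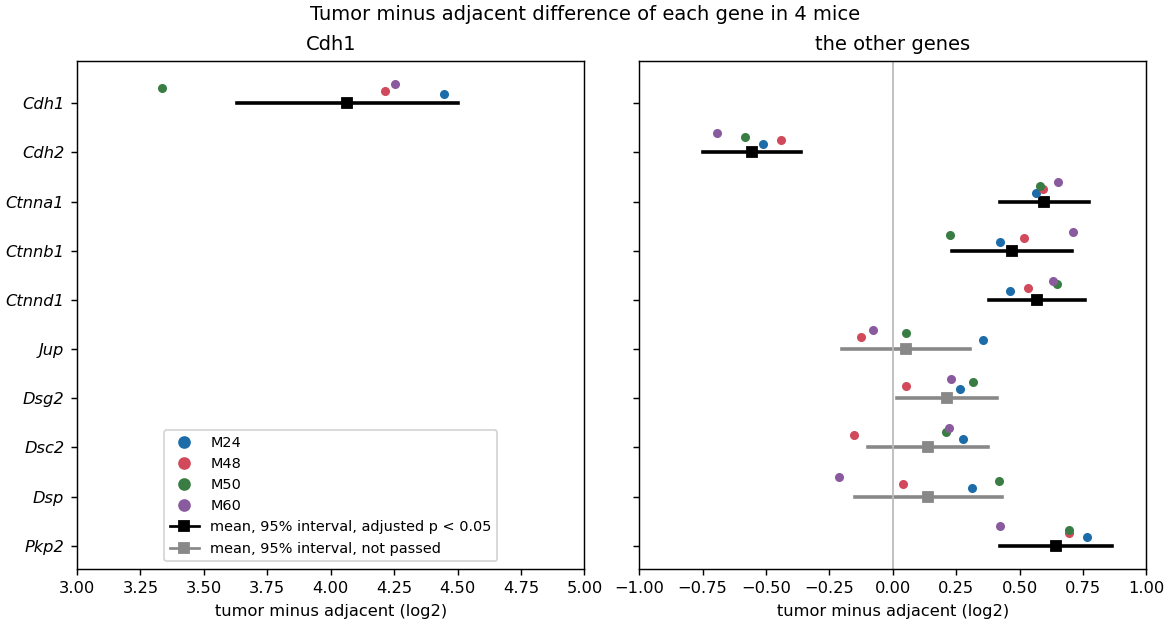
Tumor minus adjacent difference in log2 units for each gene: squares with bars are the mean and 95% interval of the limma fit over 4 pairs, black where the adjusted p was under 0.05 and grey otherwise, and dots are the 4 mice. Both panels span the same width in log2 units, and the left one, for Cdh1 alone, runs from 3 to 5. Ctnna1, Ctnnb1, Ctnnd1, Dsg2 and Pkp2 have all 4 mice to the right of 0, Cdh2 has all 4 to the left, and the intervals of Jup, Dsc2 and Dsp include 0.

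Of the desmosome genes, plakophilin 2 rose and the others did not pass. Plakophilin 2 (Pkp2), which gathers desmoplakin at the desmosomal plaque, stood at 7.28 (M24), 7.31 (M48), 7.24 (M50) and 7.54 (M60) in adjacent liver. The tumor values were 8.04 (M24), 8.01 (M48), 7.93 (M50) and 7.96 (M60). No tumor reached down into the adjacent range, and the tumors varied little, with an SD of 0.0504. Pkp2 rose by 0.64 (SE 0.0921, adjusted p = 0.0034), a 1.56-fold increase, from 0.42 in M60 to 0.76 in M24.

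Desmoplakin (Dsp), which ties the plaque to keratin, stood between 8.19 and 8.41 in adjacent liver and between 8.17 and 8.63 in tumors, so the tissues overlapped. Its difference was 0.14 (SE 0.121, adjusted p = 0.425, 95% interval -0.15 to 0.43), from -0.21 in M60 to 0.42 in M50. Without M50 the Dsp difference was 0.05, and without M60 it was 0.26, and neither passed (lowest adjusted p over the 11 alternatives 0.198). The Pkp2 difference exceeded the Dsp difference in 4 of 4 mice, by 0.50 ± 0.178 (SD, n = 4). The exact permutation test gave p = 0.125, the smallest value that 4 pairs allow, so this test could not pass 0.05.

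Desmoglein 2 (Dsg2), the desmoglein of simple epithelia, stood between 8.95 and 9.12 in adjacent liver and between 9.11 and 9.39 in tumors. It was higher in 4 of 4 tumors, by 0.22 (SE 0.0822, 95% interval 0.02 to 0.41, not adjusted for the number of genes). Its adjusted p of 0.0923 missed the threshold, as it did in all 11 alternatives. Desmocollin 2 (Dsc2), its partner cadherin, stood between 8.68 and 9.62 in adjacent liver and between 8.96 and 9.46 in tumors. M48 held the highest Dsc2 value in both tissues, 9.62 and 9.46, and was the 1 mouse with a lower value in the tumor. The Dsc2 difference was 0.14 (SE 0.0982, adjusted p = 0.328, 95% interval -0.10 to 0.37).

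**Figure D3:**
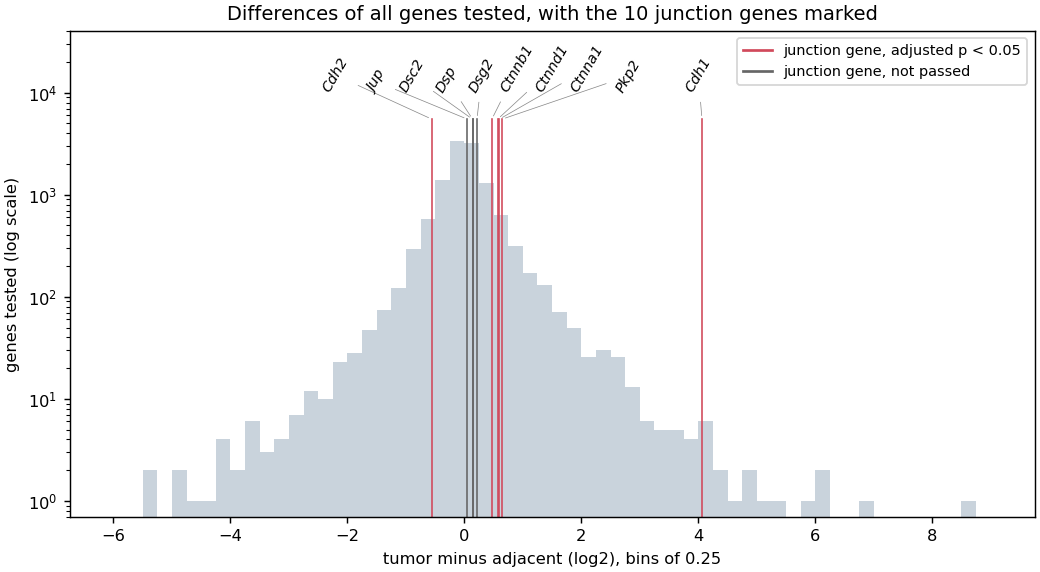
Tumor minus adjacent differences of all 11963 tested genes in bins of 0.25 log2 units (horizontal axis), with the number of genes per bin on a log axis, and lines at the 10 junction genes. Cdh1 at 4.06 lies in the far upper tail, while the other 9 lie between -0.56 and 0.64.

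The genes whose pattern over the 8 arrays was nearest to that of Cdh1 were named by the smallest root mean square distance after each gene was centred on its mean. They were Itih5, a hyaluronan-binding protein of the matrix (distance 0.269 log2 units, difference 3.94), Gldn (distance 0.385, difference 4.55) and Golm1, a Golgi membrane protein (distance 0.505, difference 3.36). Their closeness describes 8 arrays in which tissue type sets most of the pattern.

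Other genes of the same junctions were taken from 8 lists with 127 measured genes, of which 89 were tested. Of these, 23 rose and 7 fell, and 20 of the 30 calls held in every alternative that tested the gene. In the same fit 16.3% of all tested genes rose and 15.7% fell, and these shares are the background for each list below. Because a gene was kept by its mean of all 8 arrays, one with low adjacent signal was tested only if its tumor signal was high.

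In the list of actin linkers, 9 of 17 tested genes rose and 1 fell, and the median of all 18 measured genes was 0.45. Ajuba, a LIM protein that binds alpha-catenin, rose by 1.55 (SE 0.148, adjusted p = 0.000927). The non-muscle myosin Myh9 rose by 1.15, Iqgap1, a scaffold that binds beta-catenin, by 1.12, and cortactin (Cttn), which stabilises branched actin, by 0.94. The actin crosslinker Actn1 rose by 0.79, Vasp by 0.79 and vinculin (Vcl), which binds alpha-catenin under tension, by 0.72. Some rises were less firm: Actn4, at 0.30, was lost with centred arrays (adjusted p = 0.0627) and without M24 (0.106), M50 (0.0815) or M60 (0.146). Myh10, at 0.52, was lost with no filter on low means (adjusted p = 0.0505) and without M50 (0.132) or M60 (0.141). The motor Myo6 fell by 0.78, a call lost without M24 (adjusted p = 0.0559) and without M60 (adjusted p = 0.0599), over a range of 0.0094 to 0.0599.

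Among other cadherins, 5 of 15 tested genes rose and 0 fell, with a median of 0.07 over all 35 measured. With no filter on low means 2 of these genes were called lower, and without M48 1 was. With the lowest 60% of genes left out, 4 were tested and 2 rose. The giant cadherin Fat1 rose by 1.56 (SE 0.154, adjusted p = 0.00103), from 7.34 to 8.91. Liver-intestine cadherin (Cdh17) rose by 4.23, the brush-border cadherin Cdhr2 by 2.20 and Dchs1, a ligand of Fat4, by 0.64. The adjacent means of these genes, 3.59 for Cdh17, 3.77 for Cdhr2 and 4.46 for Dchs1, lay below the filter value of 4.597, so the sizes are uncertain. They were tested only because their tumor signal was high, so the share of rises among the tested genes depends in part on the filter. Cdh18, at -0.36, and Cdh19, at -0.38, were left out by the filter and not tested. Fat4 rose by 0.38, but this call was lost when arrays were centred on medians (adjusted p = 0.0596) or quantile-normalized (adjusted p = 0.0604), and without M48 (0.105), M50 (0.119) or M60 (0.0803).

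Among other catenins and nectins, 0 of 8 tested genes rose and 1 fell, with a median of -0.01 over the 11 measured genes. Nectin3, an immunoglobulin-type adhesion protein of adherens junctions, fell by 0.71 (SE 0.128, adjusted p = 0.00764). The p120-related Pkp4 stood at -0.30 (adjusted p = 0.0502) and passed in 3 alternatives, among them without M50 (adjusted p = 0.0441, in a range of 0.0326 to 0.196). Arvcf, another p120 relative, stood at -0.34 and passed only without M60 (adjusted p = 0.035, in a range of 0.035 to 0.317). Nectin2 stood at 0.29 (adjusted p = 0.128).

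Of other desmosome genes and the keratins they hold, 3 of 9 tested genes rose and 0 fell, with a median of 0.02 over the 13 measured. The hepatocyte keratins Krt18 and Krt8 rose by 1.26 (SE 0.155) and 1.22 (SE 0.161), from 10.62 to 11.88 and from 11.08 to 12.29 (adjusted p = 0.00207 and 0.00271). Periplakin (Ppl) rose by 0.58, a call lost without M24 (adjusted p = 0.0502) and without M60 (adjusted p = 0.0647), in a range of 0.00865 to 0.0647. Dsg1c stood at -0.67 (adjusted p = 0.119).

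Genes of cadherin processing and turnover rose in 4 of 11 cases and fell in 0 (1 without M48), with a median of 0.30. The membrane metalloprotease Mmp14 rose by 1.05 (SE 0.145, adjusted p = 0.00304), Adam10, which sheds the E-cadherin ectodomain, by 0.49 and Arf6, a GTPase of cadherin uptake, by 0.46. The gamma-secretase subunit Ncstn rose by 0.40, but not without M50 (adjusted p = 0.0576) or M60 (adjusted p = 0.0747), in a range of 0.0142 to 0.0747.

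In the beta-catenin destruction complex and its nuclear partners, 1 of 16 tested genes rose and 4 fell, with a median of -0.09 over 19 measured. Axin2, a scaffold of the complex and itself a Wnt target, fell by 0.72 (SE 0.14, adjusted p = 0.0101). Apc fell by 0.37, Gsk3a by 0.38 and Amer1 by 0.39, and the kinase Csnk1a1 rose by 0.34. Without M60 each of these 4 calls was lost, at adjusted p = 0.0698 for Apc, 0.161 for Gsk3a, 0.0615 for Amer1 and 0.0724 for Csnk1a1. Apc and Gsk3a were also lost without M48 (adjusted p = 0.0627 and 0.116) and without M50 (0.0865 and 0.158), and Csnk1a1 without M24 (0.0518). Amer1 was lost without M24 (0.146), M48 (0.117) or M50 (0.0741) and with no filter on low means (0.0577). Gsk3a was also lost with no filter (0.0675) and with no variance trend (0.0514). The count of falls was 1 without M48, 1 without M50, 1 without M60 and 2 with no filter on low means. The count of rises was 0 without M24, 2 without M50 and 0 without M60.

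Of the known repressors of E-cadherin transcription, 0 of 8 tested genes rose and 0 fell by limma, and 1 of the 8, Tcf4, had an unadjusted p under 0.05. Tcf4 stood at 0.32 (adjusted p = 0.0568) and passed with no replicate block (adjusted p = 0.027), with the lowest 60% of genes left out (0.0451) and without M48 (0.0275), in a range of 0.027 to 0.182. Snai1 stood at 0.20 (adjusted p = 0.188), Snai2 at -0.24 (adjusted p = 0.173) and Twist2 at 0.18 (adjusted p = 0.278). Zeb1 stood at 0.06 (adjusted p = 0.698) and Zeb2 at 0.05 (adjusted p = 0.802), and the sign of Zeb2 turned when arrays were centred on medians (-0.0071). These values do not show that the repressors were unchanged.

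**Figure D4:**
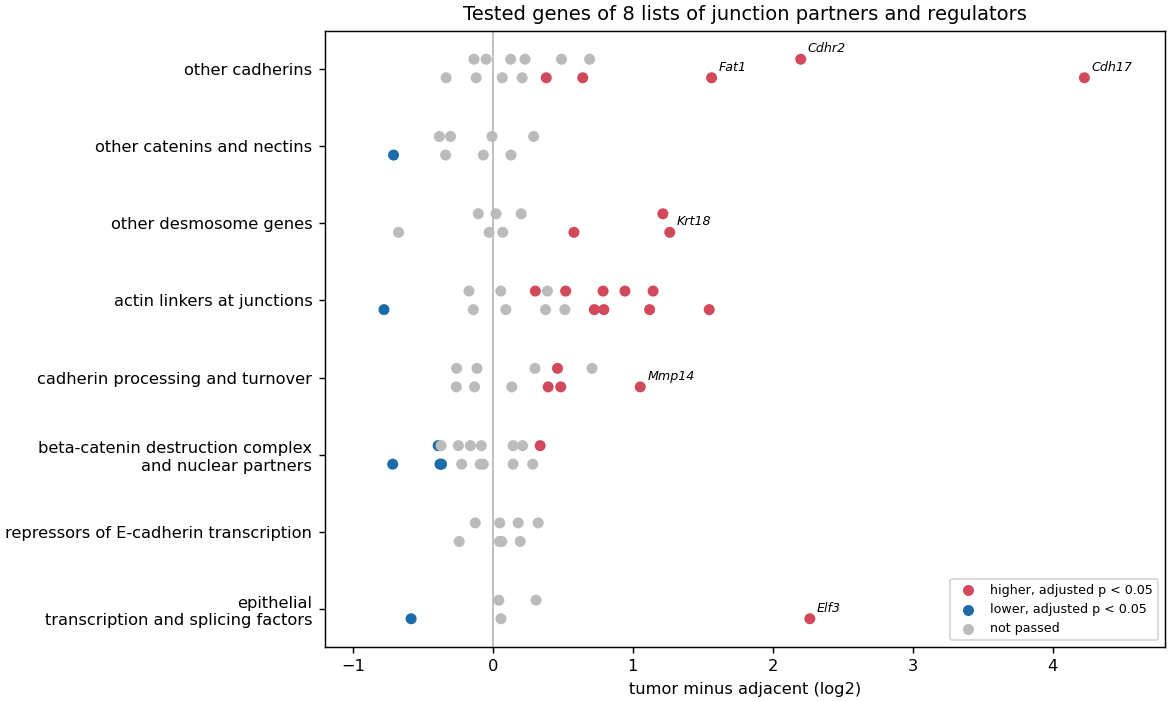
Tumor minus adjacent differences in log2 units (horizontal axis) of the tested genes in 8 lists of junction partners and regulators, 1 dot per gene, red where higher and blue where lower at an adjusted p under 0.05, and grey otherwise. Red dots are 9 of 17 for the actin linkers and 0 of 8 for the repressors of E-cadherin transcription, beside 16.3% of all tested genes. The lists were not compared by a test. Cdh17 lies farthest to the right at 4.23.

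Lists of cell type markers were read beside these genes, and some of them moved while others did not. Their counts, here and in the next paragraph, also stand beside 16.3% of all tested genes higher and 15.7% lower. Of 6 tested bile duct markers 3 rose and 0 fell, and the mean level of the 8 measured was 5.53 to 5.64 in adjacent liver and 5.80 to 6.40 in tumors. Sox9 rose by 1.36, Aqp1 by 0.68 and Krt19 by 0.85, the last lost when M24 (adjusted p = 0.136) or M60 (0.12) was left out and when mice were not paired (0.0784), in a range of 0.0305 to 0.136. Epcam stood at 0.82 (adjusted p = 0.0504), passing without M50 (0.0283) and unpaired (0.0452), and Krt7 at 0.30 (adjusted p = 0.401). The adjacent mean of Epcam, 4.57, lay below the filter value of 4.597, so it was tested only through its tumor signal. Of 5 measured periportal hepatocyte markers 4 fell and 1 rose: Pck1 fell by 1.42 and Cps1 by 0.84, while Hsd17b13 rose by 0.65. Another of the 4, Cyp2f2, fell by 2.07, with -0.20 in M48 and -3.68 in M60. This call was lost without M24 (adjusted p = 0.061), M50 (0.116) or M60 (0.092). The mean level of the periportal markers was 11.83 to 12.20 in adjacent liver and 10.88 to 11.46 in tumors. Of 8 pericentral markers 7 fell and 0 rose, among them Slc1a2 by 4.05, Glul by 2.13 and Lgr5 by 1.88, and their mean level was 9.64 to 10.11 in adjacent liver and 6.52 to 8 in tumors.

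Of 7 hepatocyte markers 1 rose and 2 fell: Tat fell by 1.01, Hnf4a by 0.35 and Apoa1 rose by 0.32. The Hnf4a call was lost when any 1 of the 4 mice was left out, and that of Apoa1 without M24, M48 or M60 and when arrays were centred on medians. Of 8 endothelial markers 5 rose, among them Emcn by 1.46, Lyve1 by 1.49 and Kdr by 0.64. Another of the 5, Tek at 0.39, was lost with no filter and with centred or quantile-normalized arrays. It was also lost without M48, M50 or M60 (highest adjusted p 0.136). The other 3 endothelial markers did not pass: Vwf stood at 0.51, Stab2 at 0.29 and Clec4g at -0.10. Of 9 stellate and fibroblast markers 5 rose, among them Col3a1 by 1.94, Col1a1 by 1.92 and Col1a2 by 1.49. Another of these 5, Pdgfrb at 0.58, was lost unpaired, with no filter and with centred arrays. It was also lost without M24, M50 or M60 (highest adjusted p 0.146). The other 4 of this list did not pass and went both ways: Lrat stood at -0.37, Dcn at -0.25, Des at -0.18 and Lum at 0.25. The mean level of the endothelial markers was 6.82 to 7.11 in adjacent liver and 7.46 to 7.94 in tumors, and that of the stellate and fibroblast markers 6.70 to 7.66 and 7.88 to 8.42. Macrophage markers went both ways, with 1 of 7 higher (Cd68, 0.98) and 2 lower (Marco, -1.29, and Clec4f, -0.65), and none of the 3 passed unpaired (adjusted p = 0.196, 0.151 and 0.27). Cd68 was also lost with no filter and without M48, M50 or M60, and Clec4f without M24, M48 or M50 (highest adjusted p of these 0.119 and 0.0897). Their mean level was 7.41 to 9.56 in adjacent liver and 7.80 to 9.30 in tumors. Of the lymphocyte and neutrophil markers, 0 of 6 tested passed in limma, and 2 of the 4 lymphocyte and 1 of the 2 neutrophil markers had an unadjusted p under 0.05. With no filter on low means, 1 of 7 lymphocyte markers rose. Cd3g stood at 1.19 (adjusted p = 0.0725, and 0.026 without M48), Cd8a at 0.81, Cd3e at 0.36, S100a8 at -0.39 and S100a9 at -0.08. The adjacent mean of Cd3g, 4.56, lay below the filter value of 4.597, so it too was tested only through its tumor signal. M60 had the largest difference of each of the 3 lymphocyte genes, 2.85 for Cd3g, 2.11 for Cd8a and 1.01 for Cd3e. Without M60 they stood at 0.64 for Cd3g, 0.38 for Cd8a and 0.15 for Cd3e, and without M48 S100a8 stood at -0.20. The lymphocyte mean level was 4.23 to 4.69 in adjacent liver and 4.45 to 5.78 in tumors, and the neutrophil mean level 3.69 to 4.60 and 3.72 to 4.21. The part of these cell types in the values of the 10 junction genes was not tested.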

How the data were processed

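RNA of 4 tumors and 4 adjacent livers was labelled with biotin and measured on 1 array per sample. The authors deposited 1 table of log2 values for 28874 probes. That the scale is log2 was inferred from its range, 1.918 to 14.49. Array medians lay between 4.888 and 5.006, and no further normalization was applied. MAS5 appears without a role in the submitters' processing notes, the way probes were summarized being not given in the sources used here.

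GEO's annotation of the array gave 1 symbol for 21789 probes, and the probe with the highest mean stood for its gene. The 40% of genes with the lowest mean (under 4.597) were left out. Tissues were compared with limma 3.58.1 in R 4.3.3 (lmFit, eBayes with trend), the mouse being a block, with Benjamini-Hochberg adjustment for 11963 genes, two-sided. The block was chosen because each mouse gave both tissues. Across genes, deviations from the group means of a mouse's 2 samples correlated at 0.313 (M24), 0.421 (M48), 0.0986 (M50) and 0.111 (M60). Between samples of different mice they ran from -0.378 to 0.189, a range that holds the values of M50 and M60. Deviations within a tissue cancel out over the 4 mice, which draws the values between different mice lower when those within mice are positive. That range is therefore not a neutral reference for the pairing. The fit was tested on 20 simulated data sets with 200 changed genes each and independent noise. The real data gave far more calls, 1945 higher and 1874 lower, so those runs do not measure error rates here. Alternatives are given in the closing section.

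The members and lists were chosen with earlier results of these data known. Besides the members, the genes named were the up to 4 tested genes of each partner list with the smallest p and any other called gene with a difference of at least 1, up to 3 of each marker list, and the 3 genes nearest in pattern to a called member with a difference of at least 1. Vcl, Vasp, Myo6, Fat4, Cdh18, Cdh19, Gsk3a, Zeb1, Zeb2, Epcam, Krt7, Lrat, Dcn, Des, Lum, Ehf and Grhl1 were named after their values were seen. The same holds for Actn4, Myh10, Cyp2f2, Tek, Vwf, Stab2, Clec4g and Pdgfrb.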

Additional observations from a re-analysis of the deposited data

Results flagged for a closer look

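For each of the 10 genes, the adjacent values, the tumor values and the paired differences were checked for 1 sample far from the other 3, which made 30 checks, and 2 stood out by Dixon's ratio of gap to range. Chance alone flags about 1 in 20. The Ctnna1 level in the adjacent liver of M50 was 9.35, against 9.15 to 9.18 in the other mice (ratio 0.844), and the M50 tumor was also the highest of the tumors, so the paired difference of M50 (0.58) lay inside the range of the others. The Dsc2 difference of M48 was -0.15, against 0.21 to 0.28 in the other mice (ratio 0.84), and without M48 the Dsc2 difference was 0.24 (adjusted p = 0.0964, in a range of 0.0964 to 0.636 over the alternatives).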

How the results depend on the processing

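Each of the 10 genes was refitted under 11 alternatives: no replicate block, no filter or a stricter one (the lowest 60% left out), arrays centred on medians, quantile normalization, the mean of all probes of a gene, no variance trend, and each mouse left out in turn. Of the 110 refits 107 kept the direction and the side of the threshold. Many of them could not change the direction. With no replicate block, either change of filter or no variance trend, the difference is the same number by construction. The same holds for the mean of all probes, since each of the 10 genes had 1 probe. In those refits only the adjusted p could move. With no replicate block 5 members rose and 1 fell, as in the paired fit, while over all genes 1743 rose and 1799 fell. The exceptions were Ctnnb1, which missed the threshold without M60 (0.39), and Jup, whose sign turned with arrays centred on medians (-0.003945) and whose difference ran from -0.04941 to 0.1111 when 1 mouse was left out. Leaving out 1 mouse moved the count of all genes higher between 1246 and 1754, and of those lower between 1070 and 1722, with fewer samples in the fit. The same alternatives were run after the data were seen for most other named genes and for the list counts, and some of them for the differences between members. Signs turned there for genes near 0: Zeb2 stood at -0.0071 with centred arrays. With 1 mouse left out, Zeb2 ran from -0.05375 to 0.1734, Zeb1 from -0.03215 to 0.1396, Klf5 from -0.04193 to 0.1953 and S100a9 from -0.1859 to 0.09595. The cause was not tested. No detection call or background measure was used here, so how far background limits the values, among them Cdh1 in adjacent liver and its fold, was not tested.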

Other observations

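Transcription and splicing factors of epithelia went both ways. Of 5 tested genes 1 rose and 1 fell, beside 16.3% and 15.7% of all tested genes. With no filter on low means 3 of all 11 measured rose, while 0 rose with the lowest 60% left out. With the mean of all probes of a gene 2 rose, and without M60 2 rose. Elf3, an ETS factor of epithelia, rose by 2.26 (SE 0.367, adjusted p = 0.00523), from a mean of 4.12, which lay below the filter value of 4.597, to 6.38. Its difference ran from 1.17 to 3.50 across the 4 mice. Elf3 was tested only because its tumor signal was high, so the share of rises in this list depends in part on the filter. Esrp2, a splicing regulator of hepatocytes, fell by 0.58 (SE 0.108, adjusted p = 0.00815) in 4 of 4 mice. Klf4 stood at 0.31 (adjusted p = 0.179) and Klf5 at 0.06 (adjusted p = 0.775). Ehf and Grhl1 were below the filter value in the mean over both tissues and were not tested: they stood at 1.0 and 0.72.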
